A study of Peromyscus maniculatus and Peromyscus polionotus and Peromyscus maniculatus x Peromyscus polionotus with 18 samples.

Results

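The brains described here are those of 6 adult male F1 hybrids between *Peromyscus maniculatus*, the deer mouse, and *P. polionotus*, the oldfield mouse. They are 6 of the 18 libraries of the study, and the other 12 are from males of the parental species. 3 hybrids were killed at the end of a burrowing trial in a large enclosure filled with sand, and 3 at the end of a control trial. Every hybrid carried 1 genome from each species, was tested at about 50 to 80 days of age, had been through 2 earlier trials in the enclosure and was assigned to its trial at random. What the control animals did during their trial, how long a trial lasted and which species was the mother were not given in the sources used here. Brains were taken whole, so a response limited to a small region is averaged with the rest of the brain, and fewer cells of a type and less RNA per cell cannot be told apart. The level of a gene is the sum of its counts on the maniculatus and the polionotus allele in an animal, written as CPM, the usual count scaled to library size, with TMM scaling of the libraries, and all 11928 genes of the count table were compared between the trials. Animals are named below by their trial and replicate number, and values of a group are given in the order of replicates 1, 2 and 3.

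*P. polionotus* digs long burrows with an escape tunnel, *P. maniculatus* digs short simple ones, and F1 hybrids are a standard way of asking what a shared cellular environment does to both genomes. Digging is sustained motor work in a rodent, and its brain can respond on more than one time scale. Neurons that fire strongly switch on immediate early genes such as Fos, Arc, Egr1 and Npas4 within minutes, and these in turn drive slower genes of synaptic adjustment. Effort and arousal also release glucocorticoids, which cross into the brain and switch on genes such as Sgk1, Pdk4 and Angptl4 in neurons, glia and vessels. The comparison asks which of these responses, or any other, separates brains after burrowing from brains after the control trial.

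Allele-assigned counts ranged from 22510205 to 28994982 in the burrowing animals and from 11415175 to 53906964 in the control animals. The polionotus allele held 52.6% to 53.1% of them in every animal. Burrowing replicate 2 lay apart from the other animals: the first principal component held 69.9% of the variance between libraries, with scores of -25.6, 51.1 and 9.74 in the burrowing animals and -0.06, -26.9 and -8.31 in the control animals. This 1 animal held the highest level of 36.0% of all genes and the lowest level of many others, and 37.9% of all genes were lower in it than in every control animal. What set it apart was not tested. The tissue label was checked against marker genes: astrocyte markers summed to 6613 to 9662 CPM (16 of 20 listed genes measured), oligodendrocyte markers to 3931 to 6467 CPM (16 of 24) and markers of excitatory cortical and hippocampal neurons to 2339 to 4174 CPM (20 of 25). Hindbrain and spinal cord markers summed to 42.4 to 55.1 CPM (7 of 27), and 2 of 18 blood cell markers were measured.

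No gene passed the test between the trials. edgeR's quasi-likelihood test called 0 of 11928 genes (0%) after Benjamini-Hochberg adjustment, and the smallest adjusted p was 0.965. An unadjusted p under 0.05 was reached by 90 genes (0.755%), 41 higher and 49 lower after burrowing. If no gene differed, 596 would be expected on average at that level, with a wider spread where genes vary together. limma-voom called 0 genes and had 95 at that level. DESeq2 called 2 genes (0.0168%), both lower after burrowing, and had 87 at an unadjusted p under 0.05. All 3 burrowing animals lay above all 3 control animals in 256 genes (2.15%) and below them in 230 genes (1.93%). The typical difference was small beside its error: the median absolute log2 fold change was 0.13, and the median standard error was 0.18, with 0.12 and 0.32 at the 10th and 90th percentiles. The genes described next are the 10 in each direction with the smallest p among genes with a symbol and a mean of at least 100 counts. None of the 20 passed the adjusted test, so their values are a description of these animals.

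**Figure D1:**
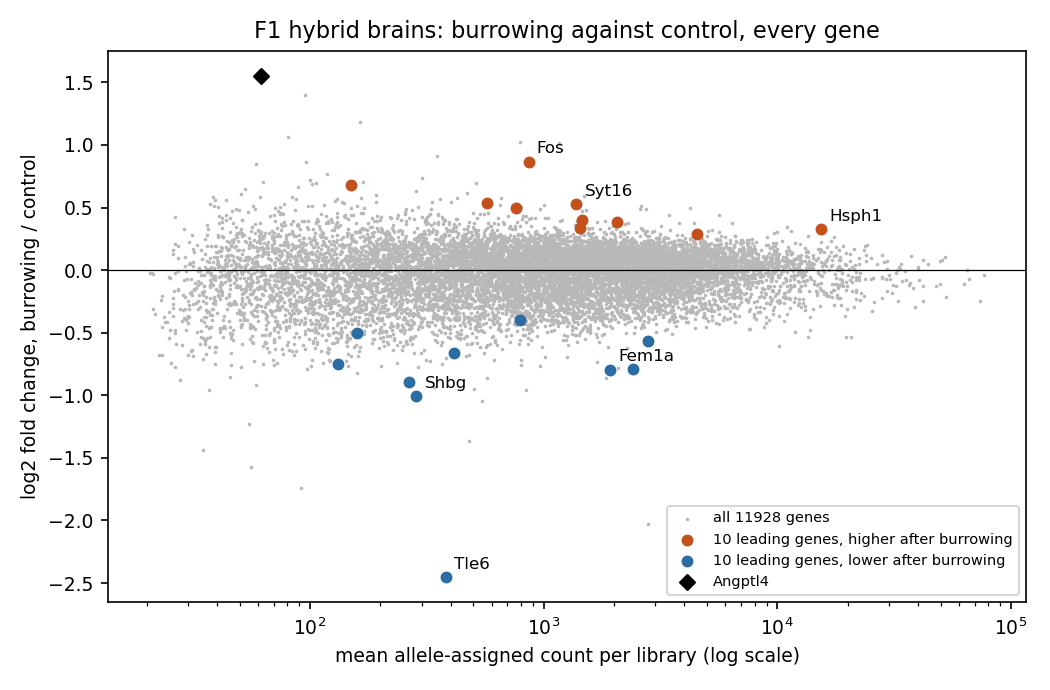
Log2 fold change of every gene between burrowing and control hybrids (vertical axis) against its mean count per library (horizontal axis, log scale). Grey points are the 11928 genes and coloured points the 10 genes with the smallest p in each direction; Tle6 lies lowest at -2.45 and Angptl4 highest at 1.55, and neither passed the adjusted edgeR test.

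Among the genes lower after burrowing, Tle6, a member of the Groucho family of transcriptional corepressors, stood first. It was at 6.13, 1.82 and 5.22 CPM in the burrowing animals and 19.2, 27.9 and 24.8 CPM in the control animals. All 3 burrowing animals lay well below every control animal. The means were 4.39 ± 2.27 and 24.0 ± 4.39 CPM (SD, n = 3 each), a 5.48-fold lower level after burrowing. The log2 fold change was -2.45 (SE 0.41, 95% interval -3.41 to -1.50), with an unadjusted p of 0.00039 by edgeR, and DESeq2 gave -2.44 with an adjusted p of 5.1e-06. Leaving out each animal in turn gave -2.79 to -2.06. The difference lay mostly on 1 allele. The maniculatus allele of Tle6 was at 49, 26 and 38 counts after burrowing and at 198, 294 and 1120 counts after the control trial (log2 fold change -3.81, adjusted p = 0.0434 by edgeR on that allele alone). The polionotus allele was at 111, 28 and 80 counts and at 16, 40 and 288 counts (-0.23, adjusted p = 0.985). The polionotus share of Tle6 was 69.4%, 51.9% and 67.8% in the burrowing animals and 7.48%, 12% and 20.5% in the control animals. A test of the difference between the alleles' changes gave 3.57 on the log2 scale with an adjusted p of 0.217, which did not pass.

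The other gene that DESeq2 called, LOC102922681, has no symbol and is named here because of that call, after its values were seen. Its level was 48.0, 54.2 and 57.2 CPM after burrowing and 111, 99.6 and 78.9 CPM after the control trial (log2 fold change -0.86, SE 0.15; DESeq2 adjusted p = 0.0312). Its maniculatus allele had 5, 4 and 2 counts in the burrowing animals against 577, 566 and 2047 in the control animals, while its polionotus allele had 1248, 1607 and 1290 counts against 662, 628 and 2437. Thus 99.6% to 99.8% of its counts lay on the polionotus allele after burrowing and 52.6% to 54.3% after the control trial. The annotation table used for gene order does not place it on a chromosome.

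Fem1a and Dpp9 followed the same pattern. They are neighbouring genes on chromosome 22, 71 and 70 genes from Tle6, inside the stretch described below. Linked genes such as Tle6, Fem1a and Dpp9 do not count as separate findings. Fem1a, a substrate receptor of a cullin ubiquitin ligase, was at 71.8, 36.6 and 52.4 CPM after burrowing and 82.8, 103 and 92.8 CPM after the control trial (log2 fold change -0.80, SE 0.23). Dpp9, a cytosolic dipeptidyl peptidase, was at 93.0, 39.0 and 69.8 CPM against 101, 132 and 116 CPM (-0.79, SE 0.29). In both, burrowing replicate 2 was lowest and replicate 1 nearest to the control animals, and without replicate 2 the differences were -0.57 and -0.50. The polionotus share of Fem1a was 82.5% to 84.6% after burrowing and 50.6% to 53.3% after the control trial, and that of Dpp9 80.4% to 82.9% and 50.9% to 53.0%. Their maniculatus alleles differed by -2.33 and -2.14 on the log2 scale and their polionotus alleles by -0.11 and -0.14. The allele by trial term passed for both (adjusted p = 0.00136 and 0.00215, edgeR with each animal as a block). Ilvbl, an acetolactate synthase-like enzyme, was at 27.8, 25.3 and 26.2 CPM against 38.2, 34.2 and 32.5 CPM (-0.40, SE 0.13). It too was lower on its maniculatus allele (-1.65) and not on its polionotus allele (0.09), with an allele by trial adjusted p of 0.138.

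A second set of lower genes differed on both alleles. Shbg, which encodes sex hormone-binding globulin, was at 7.09, 6.53 and 6.06 CPM after burrowing and 7.36, 15.8 and 16.2 CPM after the control trial (log2 fold change -1.01, SE 0.30). Control replicate 1 lay close to the burrowing animals, and the other two control animals were over 2-fold higher. Its alleles differed by -1.03 (maniculatus) and -0.92 (polionotus), and the polionotus share was 18.5% to 23.8% in all animals. Map3k19, a MAP kinase kinase kinase, was at 4.56, 6.60 and 11.2 CPM against 13.5, 16.0 and 12.1 CPM (-0.90, SE 0.32), with -0.93 and -0.89 on the alleles. Lrrn4, a leucine-rich repeat membrane protein, was at 5.33, 5.15 and 4.07 CPM against 6.19, 7.01 and 7.37 CPM (-0.50, SE 0.20), with -0.44 and -0.56.

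In 2 of the remaining 3 lower genes the allele balance of single animals stood apart. Slc38a3, the glutamine transporter of astrocytes, was at 75.9, 65.5 and 119 CPM after burrowing and 122, 137 and 127 CPM after the control trial (-0.57, SE 0.22). Burrowing replicates 1 and 2 were low and carried a polionotus share of 82.1% and 76.4%, whereas burrowing replicate 3 and the control animals lay at 46.7% to 49.7%. Scly, selenocysteine lyase, was at 14.6, 8.58 and 14.5 CPM against 19.1, 22.6 and 18 CPM (-0.67, SE 0.23, and -0.44 without burrowing replicate 2), and its polionotus shares overlapped between the trials. Rsrc1, an arginine- and serine-rich protein tied to splicing, was at 4.48, 2.63 and 4.07 CPM against 5.21, 7.34 and 6.27 CPM (-0.75, SE 0.26), and its polionotus share was 12% in burrowing replicate 1 and 41.0% to 46.6% elsewhere.

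**Figure D2:**
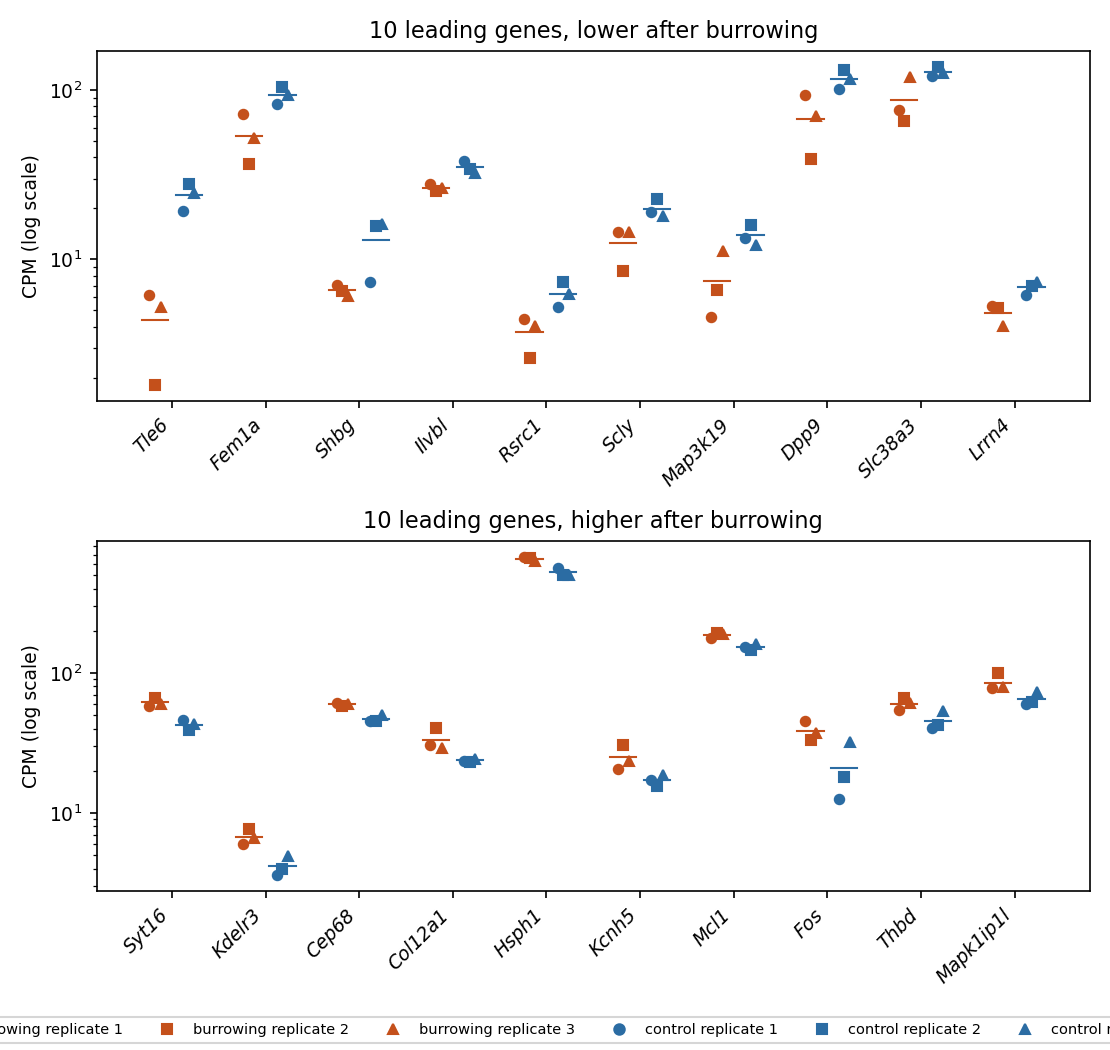
Level of the 10 lower (top) and 10 higher (bottom) genes with the smallest p in each hybrid, in CPM on a log axis. Orange marks burrowing and blue control animals, the symbol shape gives the replicate and the short lines the group means; groups do not overlap in any of the 20, and burrowing replicate 2 (square) is lowest for Tle6, Fem1a and Dpp9.

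Among the genes higher after burrowing, Syt16, a member of the synaptotagmin family of vesicle proteins, had the smallest p. It was at 58.2, 66.7 and 60.1 CPM in the burrowing animals and 46.2, 39.1 and 43.0 CPM in the control animals, means of 61.7 ± 4.48 and 42.8 ± 3.55 CPM (SD, n = 3 each). The groups stood clearly apart, with a log2 fold change of 0.53 (SE 0.12, 95% interval 0.24 to 0.82) and 0.47 to 0.58 when each animal was left out in turn. All of it lay on the polionotus allele, which differed by 1.74, while the maniculatus allele differed by -0.05. The polionotus share was 46.8%, 46.6% and 46.2% after burrowing and 20%, 20.7% and 19.5% after the control trial, and the allele by trial term passed (1.79, adjusted p = 0.00129 by edgeR). Kcnh5, a voltage-gated potassium channel and the next measured gene along the chromosome, was at 20.7, 30.7 and 23.6 CPM against 17.2, 15.6 and 18.7 CPM (0.54, SE 0.18). It also differed on its polionotus allele (0.98) more than on its maniculatus allele (0.05), with an allele by trial adjusted p of 0.238. Cep68, a centrosome linker protein, was at 60.7, 58.3 and 59.5 CPM against 45.5, 45.6 and 49.9 CPM (0.34, SE 0.11), with 0.58 on the polionotus and 0.02 on the maniculatus allele.

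Other higher genes differed in the same direction on both alleles. Fos, the archetypal activity-induced transcription factor, was at 45.1, 33.0 and 37.4 CPM after burrowing and 12.5, 18.1 and 31.9 CPM after the control trial, means of 38.5 ± 6.17 and 20.8 ± 9.97 CPM (SD, n = 3 each). Control replicate 3 reached almost to burrowing replicate 2. The difference was 1.82-fold (log2 fold change 0.87, SE 0.32, 95% interval 0.13 to 1.61), with 1.04 on the maniculatus and 0.76 on the polionotus allele. Thbd, the endothelial anticoagulant receptor thrombomodulin, was at 54.4, 65.9 and 60.6 CPM against 40.5, 42.6 and 53.3 CPM (0.40, SE 0.15; 0.41 and 0.40 on the alleles). Mcl1, an anti-apoptotic relative of Bcl2, was at 178, 192 and 190 CPM against 152, 146 and 162 CPM (0.28, SE 0.10; 0.28 and 0.29). In both genes the alleles' differences were nearly equal and the groups were narrowly apart. Kdelr3, a receptor that returns escaped proteins to the endoplasmic reticulum, was at 6.02, 7.71 and 6.59 CPM against 3.59, 4.01 and 4.91 CPM (0.68, SE 0.21; 0.50 and 1.0). Mapk1ip1l was at 77.5, 99.2 and 78.8 CPM against 59.7, 62.3 and 73.1 CPM (0.39, SE 0.15; 0.28 and 0.47).

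Hsph1 and Col12a1 differed more on the maniculatus allele. Hsph1, a large heat shock protein of the Hsp110 family, was at 674, 661 and 627 CPM after burrowing and 559, 503 and 502 CPM after the control trial (log2 fold change 0.33, SE 0.11). Its polionotus share was 49.6% in burrowing replicate 1 and 81.5% to 83.4% in the other 5 animals, so the allele difference (1.02 on the maniculatus against 0.12 on the polionotus allele) came with the share of that 1 animal. The summed level of replicate 1 was close to that of the other burrowing animals. Col12a1, a collagen of connective tissue, was at 30.4, 40.7 and 29.2 CPM against 23.6, 23.3 and 24.2 CPM (0.50, SE 0.16; 0.81 and 0.10 on the alleles).

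All 20 genes kept their direction in each of the 19 alternative analyses that used both alleles. The 20 were chosen by small p in these same animals, which the alternatives reuse. Their steady direction, and the counts that follow, are therefore no independent support. With the first principal component of the libraries as a covariate, an alternative added after seeing the data, 20 of the 20 had an unadjusted p under 0.05 by edgeR, and 16 did so without burrowing replicate 2. Only Tle6 passed the adjusted test in any of them (DESeq2, and -2.09 with an adjusted p of 0.0376 with the component as covariate).

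Where these genes lie along the chromosomes was not used to choose them. Gene order came from the RefSeq annotation of assembly GCF_049852395.1 HU_Pman_BW_mat_3.1, which placed 10155 of the tested genes. The allele by trial term passed for 27 genes (0.226% of those tested), 16 of them among 305 genes of chromosome 22 and 4 (Tspan13, Cog5, Syt16 and Dcaf5) on chromosome 14. This count was 10 without control replicate 2 and 60, 43 and 73 without burrowing replicate 1, burrowing replicate 3 and control replicate 3. Of the 69 placed genes with an unadjusted p under 0.05 for the summed level, 14 (20.3%) lay within 25 genes of such a call, against 3.75% of all placed genes (381 of 10155). Among the 20 genes with the smallest p, 19 were placed and 5 (26.3%) lay that near. Of the 90 genes, 23 (25.6%) had polionotus shares that did not overlap between the trials, as did 7.95% of all genes. The maniculatus allele tested alone gave 6 calls (0.0503%), all lower after burrowing: they included Tle6, LOC102922681, Akap8l, the lipid droplet protein Plin3 and LOC102917894. The polionotus allele tested alone gave 0 calls (0%), with 171 genes at an unadjusted p under 0.05 by edgeR.

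Chromosome 22 showed this most densely. From Tle6 to the zinc finger gene Znf414, 125 genes further on, the stretch held 15 of the 16 allele by trial calls among 126 genes. The calls were not spread evenly. Between Tle2, next to Tle6, and Mpnd lay 63 genes with 0 calls, whose alleles were lower to a like degree (median -0.41 on the maniculatus and -0.38 on the polionotus allele). Polionotus shares were separate between the trials in 40 of the 126 genes, and the median share difference was 1.75 percentage points. The genes named next are among those with the widest share differences. Akap8l, a nuclear scaffold protein, had 272, 237 and 207 maniculatus counts after burrowing and 758, 667 and 2803 after the control trial, with polionotus shares of 90.1% to 91.0% and 45.2% to 48.7%. Ubxn6, a cofactor of the p97 ATPase, had 22, 3 and 5 maniculatus counts against 113, 340 and 699, with shares of 97.7% to 98.8% and 45.2% to 49.1%. In Plin3 the maniculatus allele had 11, 7 and 10 counts against 77, 155 and 554. In every one of these genes the 3 burrowing animals were low on the maniculatus allele and the 3 control animals were not. In this stretch trial and the parental genotype of the animals cannot be told apart. The stretch and the genes named in it were picked after their values were seen, and the stretch has no test.

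The summed level of this stretch was lower too, but 1 animal carried much of that. Its median log2 fold change was -0.33, with 111 of 126 genes below 0, against 0.01 for the other 179 genes of the chromosome. The median deviation of its genes from their mean over all animals was 0.40, -0.80 and -0.24 on the log2 scale in the burrowing animals and 0.02, 0.47 and 0.14 in the control animals. Without burrowing replicate 1 the median was -0.76, without burrowing replicate 2 it was -0.09, without control replicate 2 it was -0.15, and with the first principal component as a covariate it was -0.05.

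**Figure D3:**
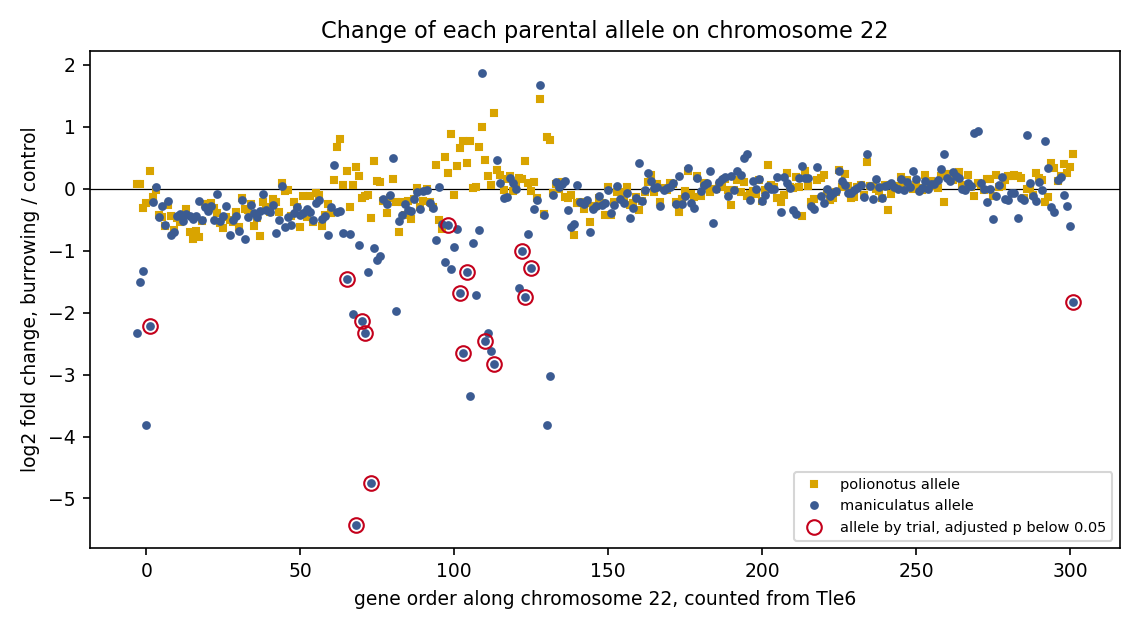
Log2 fold change of each parental allele between burrowing and control hybrids (vertical axis) for 305 genes of chromosome 22 in gene order, counted from Tle6 (horizontal axis). Blue circles are maniculatus alleles, yellow squares polionotus alleles, and red rings mark the genes whose allele by trial term passed; 15 of these 16 lie between Tle6 and Znf414, where the median was -0.45 for the maniculatus and -0.20 for the polionotus allele.

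Immediate early genes were mostly higher after burrowing, but not alike in the 3 animals. Of 38 listed genes 30 were measured, 0 passed the test in either direction, 25 had a log2 fold change above 0, and the median was 0.27 (quartiles 0.14 and 0.43), against a median of 0.0017 over all genes, 50.4% of which were above 0. Fos and Dusp6, a phosphatase that damps MAP kinase signalling, were the 2 of 30 whose groups did not overlap, both higher after burrowing, as were 2.15% of all genes. Dusp6 was at 63.3, 62.9 and 66.3 CPM against 53.1, 49.2 and 61.5 CPM (0.23, SE 0.13). The mean log2 CPM of the 30 genes was 5.44, 4.52 and 4.84 in the burrowing animals and 4.18, 4.78 and 5.10 in the control animals, so the groups overlapped.

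Burrowing replicate 1 was at the top of most of these genes. It held the highest level of 18 of the 30 genes (60.0%), against 15.9% of all genes, and control replicate 1 held the lowest level of 15. Arc, a synaptic protein made from activity-induced mRNA, was at 334, 35.8 and 130 CPM after burrowing and 53.6, 111 and 189 CPM after the control trial (0.50, SE 0.73). Both its highest and its lowest level were in burrowing animals. Npas4, a neuron-specific transcription factor induced by calcium entry, was at 110, 21.3 and 35.4 CPM against 23.2, 21.4 and 37.5 CPM (1.01, SE 0.56). Egr1 was at 412, 164 and 228 CPM against 142, 245 and 231 CPM (0.38, SE 0.34), Junb at 42.6, 4.31 and 14.5 CPM against 7.63, 21.5 and 18.8 CPM (0.35, SE 0.73), and the nuclear receptor Nr4a1 at 145, 31.3 and 85.2 CPM against 32.8, 71.7 and 97.0 CPM (0.37, SE 0.55). Burrowing replicate 1 was highest in all 5 genes, and burrowing replicate 2 was the lowest of the 6 animals in all but Egr1. Without burrowing replicate 1 the list's median was 0.04, with 17 of 30 above 0, Npas4 was at 0.035, and Arc, Egr1, Junb and Nr4a1 turned to -0.52, -0.07, -0.79 and -0.22. Without control replicate 1 the median was 0.07, and without control replicate 3 it was 0.50.

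With the first principal component as a covariate, an alternative added after seeing the data, the 6 named genes were further apart between the trials. The log2 values were Fos 0.95, Arc 0.89, Egr1 0.72, Junb 0.84, Npas4 1.28 and Nr4a1 0.78. None passed the adjusted test, and unadjusted edgeR p-values were 0.00122 (Egr1) to 0.0417 (Arc). The component was computed from these same libraries and had its largest score, 51.1, in burrowing replicate 2, the lowest burrowing animal in all 6 genes. The covariate thus gives less weight to the animal that went against the direction, and these values are no independent support. Among other members, Klf10, an early response factor, was at 31.2, 21.4 and 28.8 CPM against 13.7, 17.5 and 25 CPM (0.52, SE 0.25), and Fosb, a partner of Jun proteins, at 32.7, 16.1 and 18.1 CPM against 6.28, 15.4 and 19.1 CPM (0.69, SE 0.42). In both, control replicate 3 reached into the burrowing range. Slower activity genes showed a median of 0.10 over 17 measured genes, 12 of them above 0 and 0 passing. Rgs2, a regulator of G protein signalling, was at 76.6, 107 and 84.1 CPM after burrowing and 71.1, 62.5 and 71.7 CPM after the control trial, without overlap (0.38, SE 0.15, and 0.25 without burrowing replicate 2). Bdnf, the neurotrophin, was at 22.2, 17.0 and 21.5 CPM against 17.5, 20.1 and 24.7 CPM (-0.05, SE 0.18, 95% interval -0.47 to 0.38). Plat, tissue plasminogen activator, was at 100, 170 and 78.5 CPM against 70.6, 87.7 and 90.4 CPM (0.49, SE 0.27), and without burrowing replicate 2 the difference was 0.12.

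**Figure D4:**
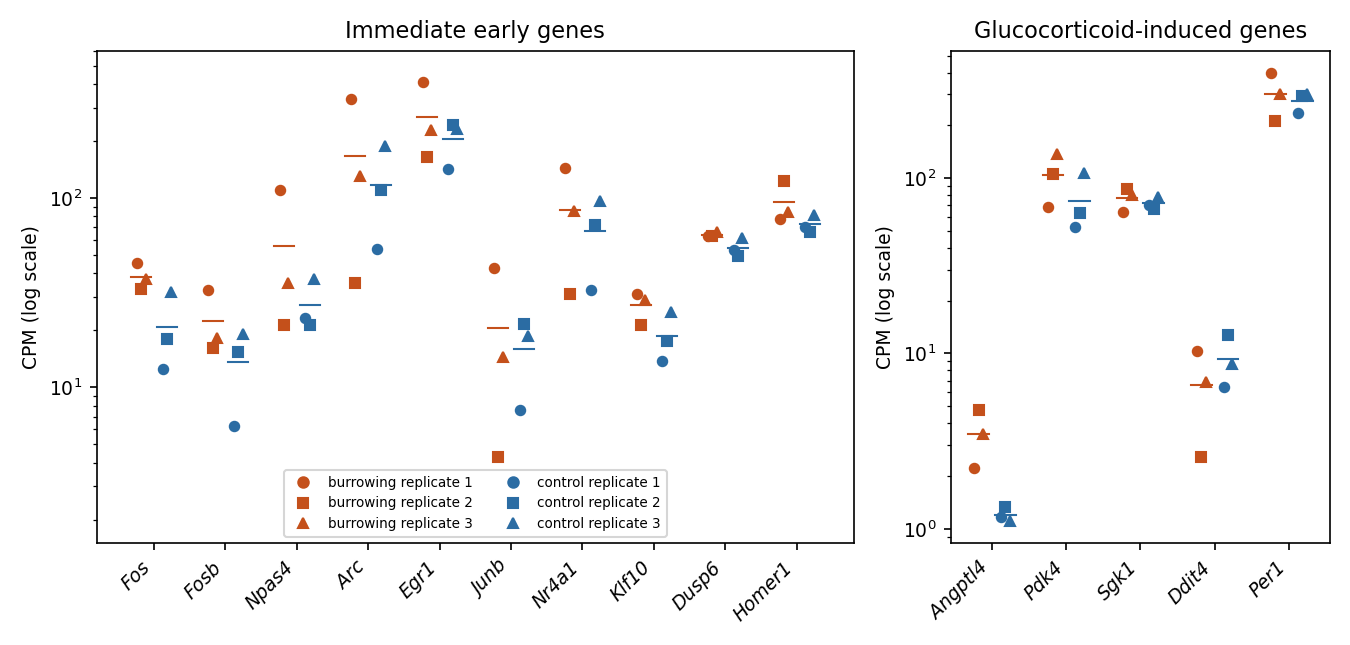
Levels of 10 immediate early genes (left) and 5 glucocorticoid-induced genes (right) in each hybrid, in CPM on log axes. Orange marks burrowing and blue control animals, shapes give the replicate and short lines the group means; burrowing replicate 1 (circle) is highest for Arc, Egr1, Junb, Npas4 and Nr4a1, and Angptl4 is separate between the trials, 2.22 to 4.78 against 1.11 to 1.34 CPM.

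Of the glucocorticoid-induced genes, Angptl4 stood out. It encodes a secreted inhibitor of lipoprotein lipase, the enzyme that frees fatty acids from circulating lipoproteins. Its level was 2.22, 4.78 and 3.45 CPM after burrowing and 1.17, 1.34 and 1.11 CPM after the control trial, means of 3.48 ± 1.28 and 1.20 ± 0.12 CPM (SD, n = 3 each). Every burrowing animal was above every control animal, and the lowest of them was burrowing replicate 1. The difference was 2.93-fold (log2 fold change 1.55, SE 0.32, 95% interval 0.80 to 2.30, unadjusted p = 0.00145 and adjusted p = 0.965 by edgeR). It was 1.27 to 1.80 when each animal was left out in turn, and 1.27 without burrowing replicate 2. It rested on few reads, with a mean of 61.7 counts per animal, which kept it out of the 20 genes above. Both alleles differed alike, by 1.68 (maniculatus) and 1.45 (polionotus), and the polionotus shares overlapped, at 41.4% to 64.1% after burrowing and 53.8% to 62.5% after the control trial. Angptl4 lay 3 genes past Znf414 on chromosome 22, with 7 allele by trial calls within 25 genes. Its direct neighbours Rab11b and Kank3 differed by 0.13 and 0.49 percentage points in polionotus share between the trials. Ndufa7 and Cd320, just beyond Kank3, differed by 51.5 and 43.1 points, though their allele by trial terms did not pass (adjusted p = 0.148 and 0.0568 by edgeR). In this neighbourhood too, trial and the parental genotype of the animals cannot be told apart.

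The other glucocorticoid-induced genes did not follow it as a group. Of 30 listed genes 20 were measured, 0 passed, 13 were above 0 and the median was 0.11. Without burrowing replicate 1 the median was -0.04 with 10 of 20 above 0, and without control replicate 1 it was 0.05. Pdk4, a kinase that turns mitochondria from glucose to fat, was at 68.9, 106 and 138 CPM after burrowing and 52.3, 63.1 and 107 CPM after the control trial, with overlap (0.48, SE 0.32). Sgk1, a kinase that regulates ion transport, was at 63.9, 87.2 and 80.0 CPM against 70.5, 67.1 and 77.7 CPM (0.10, SE 0.14), and Per1, a clock gene that glucocorticoids also induce, at 397, 212 and 303 CPM against 234, 292 and 303 CPM (0.14, SE 0.22). Ddit4, an inhibitor of mTOR signalling, was at 10.3, 2.56 and 6.90 CPM against 6.46, 12.7 and 8.73 CPM (-0.49, SE 0.48), and without burrowing replicate 2 the difference was -0.09. Fkbp5, a standard reporter of glucocorticoid action, and Ptges are not rows of the count table and were not analysed here in the hybrids. In 27 measured genes of lipid and ketone metabolism the median was 0.04. Srebf1, the transcription factor of lipid synthesis, was at 64.2, 29.8 and 45.3 CPM against 57.3, 90 and 84.5 CPM (-0.74, SE 0.29, and -0.49 without burrowing replicate 2), with a polionotus share of 51.5% to 52.8% in control replicates 2 and 3 and 76.9% to 77.5% in the other 4 animals. Circadian clock genes had a median of 0.01 over 21 genes, with 0 passing and 0 separate between the trials (4.07% of all genes were separate).

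Heat shock and chaperone genes differed by little, but mostly in 1 direction. These genes fold new or damaged proteins in the cytosol and the endoplasmic reticulum. Of 33 listed genes 24 were measured, 0 passed, 22 lay above 0, and the median was 0.13 (quartiles 0.08 and 0.22). The mean log2 CPM of the list was 7.12, 6.99 and 7.06 in the burrowing animals and 6.92, 6.92 and 6.93 in the control animals. The groups did not overlap and were 0.13 apart. An exact permutation test of the list mean over the animals gave p = 0.1, the smallest possible with 3 against 3. After Benjamini-Hochberg adjustment that p was 0.797, so the separation did not pass. Of the 31 list means, 1 other did not overlap, that of the 2 measured pituitary markers. Hsph1 and Pdia4 were the 2 of 24 members whose groups were separate, both higher after burrowing (2.15% of all genes). Pdia4, a disulfide isomerase of the endoplasmic reticulum, was at 171, 207 and 175 CPM after burrowing and 142, 141 and 161 CPM after the control trial (0.31, SE 0.12; 0.31 and 0.32 on the alleles). Manf, a secreted factor induced by stress of that compartment, was at 35.3, 55.2 and 32.6 CPM against 27.6, 27.5 and 32.7 CPM (0.49, SE 0.22), and the chaperone Hspa5 at 257, 276 and 239 CPM against 261, 187 and 216 CPM (0.22, SE 0.14). Without burrowing replicate 2 the median was 0.16 with 23 of 24 above 0, and without burrowing replicate 1 it was 0.16 with 17 above 0. limma-voom gave 18 of 24 above 0 at a median of 0.13.

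Genes of the respiratory chain were mostly below 0, and the control animals decided by how much. Of 73 listed nuclear subunit genes 30 were measured, 25 were below 0, the median was -0.11 and 0 passed. Between the trials 4.07% of all genes were separate, and all 30 of these subunit genes overlapped. Their mean log2 CPM was 6.92, 6.53 and 6.74 after burrowing and 7.12, 7.12 and 6.62 after the control trial, with control replicate 3, the deepest library, within the burrowing range. Without control replicate 1 the median was 0.03 with 16 of 30 above 0, and without control replicate 3 it was -0.28 with 0 above 0. Ndufa7, a complex I subunit on chromosome 22, was at 39.5, 48.0 and 39.9 CPM against 57.6, 53.4 and 46.1 CPM (-0.30, SE 0.14), with polionotus shares of 91.1% to 98.3% after burrowing and 43.0% to 43.5% after the control trial. Of 75 cytosolic ribosomal protein genes 8 were measured, with a median of -0.10, which was 0.08 without control replicate 1 and -0.31 without control replicate 3. Hypoxia and glycolysis genes had a median of -0.04 over 22 genes, and interferon-stimulated genes one of 0.16 over 18, with the highest mean level in burrowing replicate 2 (3.15 log2 CPM, against 2.60 to 2.85 in the other 5 animals). The interferon median was 0.06 without burrowing replicate 2 and -0.0027 without it and control replicate 3.

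Most transmitter and behaviour genes overlapped between the trials, as did most genes of the count table, of which 4.07% were separate. Of 22 measured dopamine and striatal genes 0 passed, 0 were separate between the trials, and the median was -0.03. The dopamine receptor Drd1 was at 32.3, 37.6 and 34.5 CPM after burrowing and 34.2, 32 and 30.2 CPM after the control trial (0.12, SE 0.13), and Drd2 at 68.3, 66.6 and 66.8 CPM against 69.6, 66.9 and 67.0 CPM (-0.01, SE 0.10, 95% interval -0.25 to 0.22). Penk, the enkephalin precursor, was at 119, 78.1 and 101 CPM against 119, 131 and 99.4 CPM (-0.23, SE 0.18, and -0.07 without burrowing replicate 2). Vasopressin (Avp) was at 12.3, 5.99 and 9.60 CPM against 8.62, 9.68 and 12.4 CPM (-0.15, SE 0.29), and oxytocin (Oxt) at 8.05, 1.85 and 3.10 CPM against 5.92, 8.26 and 4.49 CPM (-0.51, SE 0.52, 95% interval -1.70 to 0.69). In Oxt and Avp burrowing replicate 2 was lowest, and Oxt was at -0.11 without it and at -1.32 without burrowing replicate 1. For both, the intervals leave room for changes over 1.5-fold in these low-level peptides. Galanin (Gal) was the only one of 18 measured peptide and receptor genes whose groups were separate, at 2.34, 1.85 and 2.21 CPM against 2.69, 2.67 and 2.69 CPM (-0.33, SE 0.20), and 1.93% of all genes were separate in that direction. Of 39 measured locomotor behaviour genes 3 were separate, all higher after burrowing (2.15% of all genes), and the median was -0.02. One of them was Oprm1, the mu opioid receptor, at 9.24, 9.49 and 8.81 CPM against 6.19, 7.43 and 8.08 CPM (0.34, SE 0.18). Synaptic vesicle release genes had a median of -0.08 over 25 genes, and 0.03 without burrowing replicate 2, and cholinergic and serotonergic genes one of -0.03 over 16.

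Markers of cell types and brain regions differed little between the trials. Across the 16 marker lists 0 genes passed, and list medians with at least 5 measured genes ran from -0.18 (hypothalamus, 8 genes) to 0.11 (olfactory bulb, 11 genes). Without burrowing replicate 2 these were -0.03 and 0.06. Astrocyte markers were below 0 in 13 of 16 genes, with a median of -0.12, and -0.04 without burrowing replicate 2. Groups were separate in 2 of the 16 with burrowing lower and in 1 with burrowing higher, against 1.93% and 2.15% of all genes. Fgfr3, a growth factor receptor of astrocytes, was 1 of these 2 lower genes. It was at 333, 277 and 312 CPM after burrowing and 345, 371 and 355 CPM after the control trial (-0.22, SE 0.11, and -0.13 without burrowing replicate 2). Microglial markers had a median of 0.03 over 14 genes, whereas Cx3cr1, their fractalkine receptor, was at 31.3, 33.1 and 45.9 CPM against 46.3, 46.9 and 52.4 CPM (-0.40, SE 0.17). Its polionotus share was 92.9% and 95.4% in burrowing replicates 1 and 2 and 53.7% to 56.2% in the other 4 animals, and its polionotus allele differed by 0.11. In the olfactory bulb list 9 of 11 genes were above 0. Fabp7, a fatty acid-binding protein of glia and progenitors, was at 4.22, 6.23 and 5.04 CPM against 4.49, 2.75 and 2.52 CPM, with control replicate 1 in the burrowing range (0.70, SE 0.28). Only 2 of 14 pituitary markers were measured. Of these, Tshb, the thyrotropin subunit, was at 2.07, 7.04 and 2.30 CPM against 1.35, 1.59 and 2.32 CPM (1.06, SE 0.51), and without burrowing replicate 2 the difference was 0.25. The part of these markers in the results above was not tested.

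**Figure D5:**
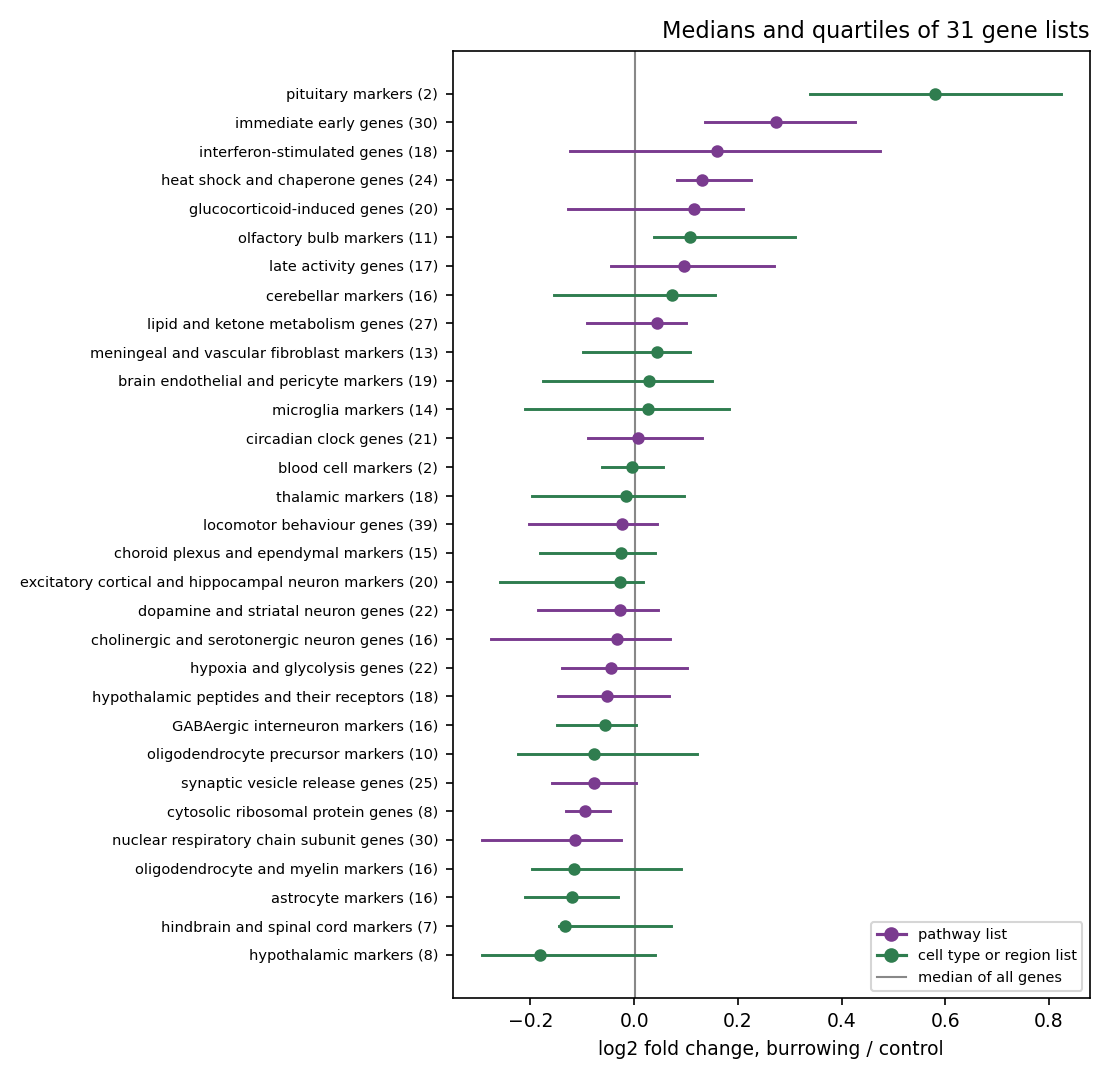
Median log2 fold change (points) and quartiles (lines) of the measured members of 31 gene lists, with the number measured in brackets; purple marks pathway lists and green cell type or region lists. The grey line marks the median of all 11928 genes, 0.0017; immediate early genes have a median of 0.27 and hypothalamic markers one of -0.18, and the 2 pituitary markers lie highest at 0.58.

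The same trials in the parental species gave values to set beside these. Parental levels are TPM of other animals, normalized in another table, so only each comparison's own values are compared. In limma on log2(TPM + 1), 1 of 14366 genes passed between trials in *P. maniculatus* (Ptges, higher after burrowing) and 0 in *P. polionotus*. An unadjusted limma p under 0.05 was reached by 291 genes in *P. maniculatus* and 446 in *P. polionotus*. Both counts are below the average expected if no gene differed. Angptl4 was at 0.57, 0.90 and 2.10 TPM after burrowing and 0.47, 0.37 and 0.31 TPM after the control trial in *P. maniculatus* (0.60, SE 0.20, adjusted p = 1 by limma). In *P. polionotus* it was at 2.76, 2.41 and 2.52 TPM and at 0.62, 0.50 and 0.78 TPM (1.13, SE 0.20, adjusted p = 0.648 by limma). At such low levels the 1 added to each TPM shrinks the log2 change. The 2 parental values therefore do not show a smaller difference than in the hybrids. Burrowing animals thus lay above control animals in both species and in the hybrids, with no call in any of the 3 comparisons; Angptl4 was among the genes fixed for description with parental results known. Pdk4 was at 66.1, 76.4 and 82.3 TPM against 42.6, 31.7 and 37.4 TPM in *P. polionotus* (0.99, SE 0.25) and overlapped between trials in *P. maniculatus* (0.28, SE 0.25), as in the hybrids.

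For Fos and Tle6 the parental trials overlapped. Fos was at 169, 92.5 and 117 TPM after burrowing and 147, 109 and 112 TPM after the control trial in *P. maniculatus* (0.01, SE 0.33), and at 213, 105 and 80.8 TPM against 98.3, 137 and 84.3 TPM in *P. polionotus* (0.22, SE 0.33). Tle6 was at 7.30, 23.0 and 8.45 TPM against 6.58, 6.84 and 9.92 TPM in *P. maniculatus* (0.51, SE 0.33) and at 6.47, 9.15 and 9.36 TPM against 6.46, 7.78 and 7.85 TPM in *P. polionotus* (0.15, SE 0.33), above 0 in both where the hybrids were below. Hsph1 differed by 0.09 and 0.10 (SE 0.10 each). Over the 20 hybrid genes with the smallest p, the sign was shared with *P. maniculatus* in 11 and with *P. polionotus* in 14, and with both in 8 (40.0%). Of the 90 hybrid genes with an unadjusted p under 0.05, 70 were measured in the parents, and they shared the sign in 54.3%, 64.3% and 27.1%. Over all 9973 genes measured in both tables the sign was shared in 49.2%, 56.3% and 25.2%. Whether hybrids and parents differ in these responses was not tested, since their values are in different units.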

How the data were processed

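Whole-brain RNA of 6 F1 hybrid males was compared between 3 burrowing and 3 control animals, with groups and replicate numbers from the sample titles. Per the labels' protocols, libraries were made with a stranded poly(A) kit, and STAR 2.4.2a is the aligner named in the submitters' processing notes. The authors deposited integer counts of each gene on each allele for the hybrids (11928 rows, smallest count 2) and TPM for the parental species. Only reads given to an allele are counted, so genes with few sequence differences between the species lose reads. The build, annotation, counting and allele assignment were not given in the sources used here. 19 count rows named as dates were tested but not named, and 1 TPM row naming no gene (0.789% to 2.48% of a library) was left out.

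The alleles' counts were summed and tested with edgeR 4.0.16 (TMM, filterByExpr, which removed 0 genes, quasi-likelihood F test, two-sided) in R 4.3.3, with Benjamini-Hochberg adjustment over all genes and a threshold of 0.05. The allele by trial term used each animal as a block and a mean of at least 20 counts. Parental values were log2(TPM + 1) transformed and tested with limma 3.58.1 where the mean reached 1 TPM, with a spread shared over 12 libraries. DESeq2 1.42.0 and the other alternatives are in the closing section. Depth was 11415175 to 53906964 counts per animal, which gave the median standard error of 0.18 for a log2 fold change; TPM keep no depth. Tests were checked on simulated data in which genes varied independently. Those data hold no component shared between genes, such as the first principal component here, so the check does not cover it. Nothing names litters or cages, so p-values measure the spread between these animals. The largest share of genes with identical counts in a pair of libraries was 0.964%.

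Named genes were, per direction, 10 called genes with the largest change, filled by smallest p among genes with a symbol and a mean of at least 100 counts (all 20 were filled this way), the 2 members with the smallest p of each of 31 lists, and a set of genes always described. Genes, lists (15 pathway, 16 marker) and comparisons were chosen with earlier results of these data known, so no list is independent evidence of its direction. No promoter search was made, because no promoter sequences were used. Some results are not reported here.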

Additional observations from a re-analysis of the deposited data

Results flagged for a closer look

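For 3 of the 20 genes with the smallest p (of 27 genes in all) the difference between burrowing and control hybrids was itself different between the parental alleles by a test of that difference (edgeR's allele by trial term with each animal as a block, Benjamini-Hochberg adjusted over all genes). The polionotus minus maniculatus difference of the log2 fold changes was 1.79 for Syt16, 2.22 for Fem1a and 2.03 for Dpp9, each with 3 of 3 burrowing animals at a higher polionotus share than every control animal. Fem1a and Dpp9 are neighbouring genes on chromosome 22 and do not count as separate findings. In all of these genes trial and the parental genotype of the animals at the locus cannot be told apart. Scly was lower in all 3 burrowing hybrids than in every control hybrid and higher in all 3 burrowing *P. maniculatus* than in every control animal of that species, with a log2 fold change there of 0.29 on the log2(TPM + 1) scale. That opposite direction was not tested, because the tables hold different units.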

How the results depend on the processing

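The count of 0 called genes in the hybrids was also 0 with RLE, upper quartile and library-size scaling, limma-voom, robust edgeR, no filter or a mean of at least 100 counts, thinning to the smallest library, the polionotus allele alone, both animals numbered 3 left out and each animal left out in turn (0 to 0, with 31 without control replicate 2 to 1844 without burrowing replicate 1 at an unadjusted p under 0.05). It was 2 with DESeq2, 6 with the maniculatus allele alone and, chosen after seeing the data, 1 with the first principal component as covariate. Leaving out burrowing replicate 2 together with control replicate 3, also added later, gave 0. With the replicate number as a block (replicate block) it was 0. Deviations of same-numbered animals from their group means correlated at -0.45, -0.57 and 0.19. With 3 animals per group the deviations sum to 0 within a group, so these values cannot decide whether the numbers pair the samples. The 27 allele by trial calls ran from 10 (without control replicate 2) to 73 (without control replicate 3) with each animal left out, 60 without burrowing replicate 1 and 43 without burrowing replicate 3. In *P. maniculatus* the 1 call was 0 with a pseudocount of 0.1 or only the 2 groups compared and 2 without a filter, and 1 to 6 without each animal; the replicate block gave 1. In *P. polionotus* the 0 calls were 3 without a filter and 0 to 2 without each animal; the replicate block gave 0. The causes were not tested.

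Of the values of named genes under alternatives, 1924 kept direction and call, 3 (Tle6 with DESeq2, the maniculatus allele alone or the component as covariate) newly passed and 43 turned sign. Leave-one-out ranges that crossed 0 were Arc -0.52 to 1.03, Egr1 -0.072 to 0.65, Junb -0.79 to 0.84, Nr4a1 -0.22 to 0.78, Per1 -0.11 to 0.35, Bpgm -0.025 to 0.23, Bdnf -0.15 to 0.12, Avp -0.41 to 0.10, Drd2 -0.024 to 0.0096, Rpl3 -0.35 to 0.019, and in the parents Fos -0.22 to 0.21 (*P. maniculatus*) and -0.17 to 0.52 (*P. polionotus*). On the maniculatus allele alone Syt16 was -0.054, Npas2 0.041, Olfml3 -0.12, Chgb -0.030, Nuak2 0.10 and Drd2 0.0075. On the polionotus allele alone Ilvbl was 0.094, Ndufa7 0.84, Cx3cr1 0.11, Hoxa5 0.061, Bdnf 0.0065 and Avp 0.15. With the component as covariate Bpgm was -0.063, Bdnf 0.047, Sgk1 -0.042 and Avp 0.059. Without burrowing replicate 2 and control replicate 3 Bpgm was -0.080, Bdnf 0.23, Nuak2 0.064 and Avp 0.27. Without both animals numbered 3 Chgb was -0.083 and Bdnf 0.053. Junb was -0.19 with limma-voom and -0.13 with the replicate block, and Drd2 0.0061 with library size only and 0.0014 with upper quartile scaling. The median turned sign in 20 of the 31 gene lists when 1 animal was left out. Genes with a mean under 100 counts (1090) had a median standard error of 0.28, against 0.14 at 1000 counts or more, so low genes were measured less precisely. No gene passed the main test at any count level, and Tle6, 5.48-fold lower at a mean of 381 counts, did not. At this depth and number of animals a missing call does not exclude a difference, in low or in well-counted genes.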
